A study of Mus musculus with 24 samples.

Results

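The family of miR-15, miR-16, miR-195 and miR-497 was represented by 5 of the 510 miRNAs listed in the count table: mir-15a, mir-15b, mir-16, mir-195 and mir-497. They were chosen by name alone, and all 5 were among the 237 miRNAs that passed the filter on low counts. Small RNA was sequenced from mouse mammary tissue in 24 libraries, 3 from each of 8 groups. The tumor groups were female MMTV-PyMT mice of the FVB strain, heterozygous for a transgene in which the mouse mammary tumor virus promoter drives the polyoma middle T oncogene in mammary epithelium. They were taken at week 6 (hyperplasia of the mammary gland), week 8 (adenoma/MIN, mammary intraepithelial neoplasia), week 10 (early carcinoma) and week 12 (late carcinoma), and all 4 stages are called tumor here. The normal groups were mammary glands of FVB control females without the transgene at the same 4 ages. Each library came from 1 mouse, and by the study's pathology the tumor samples of weeks 6 and 8 also held unaffected gland.

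A miRNA is a short RNA that guides Argonaute proteins to partly complementary messenger RNAs and lowers their output. Its seed, bases 2 to 8 from the 5′ end, sets most of that pairing, so miRNAs with the same seed are grouped as a family. The miR-15/16 family is known for repressing BCL2, which blocks apoptosis, and cell cycle genes such as the cyclins D1 and E1. The human counterparts of miR-15a and miR-16-1 lie in a region often deleted in chronic lymphocytic leukemia, and miR-195 and miR-497 have been described as low in several carcinomas, those of the breast included.

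The 5 mature sequences are shown because they define the family and differ only outside the seed. All are 5p arms from RefSeq (GRCm38.p6), written 5′ to 3′, with the seed in capitals.
mir-15a: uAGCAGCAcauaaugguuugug
mir-15b: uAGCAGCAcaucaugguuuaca
mir-16: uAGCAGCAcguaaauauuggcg
mir-195: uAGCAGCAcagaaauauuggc
mir-497: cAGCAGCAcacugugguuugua
All 5 members matched an entry and shared the same seed. Of 1679 distinct mature names in RefSeq, 10 carried it, and of the other 5 only miR-322-5p had a row in the table. Counting positions from 1 at the 5′ end, miR-16-5p and miR-195a-5p differed at 2 of 21 compared bases, G10A and U11G (miR-16-5p first), and miR-16-5p is 1 base longer. miR-15a-5p and miR-15b-5p differed at 4 of 22 bases, A12C, G20A, U21C and G22A (miR-15a-5p first). The partners miR-195a-5p and miR-497a-5p were further apart, with 9 of 21 bases different, and miR-16-5p differed from miR-15a-5p at 6 of 22 and from miR-15b-5p at 8 of 22. Partners of a genomic cluster were thus less alike than miR-16 and miR-195, which lie in different clusters.

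The members lie in 3 clusters, given here in the mm9 build with GENCODE vM1 annotation. The mature miR-15a sequence (chr14:62250912-62250933, minus strand) and a copy of miR-16 (chr14:62250773-62250794, minus strand) were 117 bases apart within an intron of the long noncoding RNA gene Dleu2. miR-15b (chr3:68813697-68813718, plus strand) and the other copy of miR-16 (chr3:68813840-68813861, plus strand) were 121 bases apart within an intron of Smc4, which encodes a condensin subunit. miR-497 (chr11:70048232-70048253, plus strand) and miR-195 (chr11:70048564-70048584, plus strand) were 310 bases apart in no annotated host gene, between Bcl6b and 0610010K14Rik, both on the minus strand. The mir-16 row holds the reads of both its copies, because their mature sequence is identical. The 2 hairpins that give it are shown, with the shared mature part in capitals, since they differ only in the surrounding bases.
Mir16-1: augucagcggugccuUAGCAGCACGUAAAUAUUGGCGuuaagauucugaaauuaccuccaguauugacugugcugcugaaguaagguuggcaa
Mir16-2: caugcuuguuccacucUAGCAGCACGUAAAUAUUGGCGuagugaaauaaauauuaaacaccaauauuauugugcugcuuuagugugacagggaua
They lie at chr14:61631880-61631972 (minus strand) and chr3:69009902-69009996 (plus strand) of GRCm38.p6. A change in mir-16 could therefore not be assigned to either cluster, and a ratio of mir-15a or mir-15b to mir-16 compares a single-copy partner with the sum of both copies.

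Libraries held 1032241 to 2213972 counts in tumors and 1626022 to 3931375 in normal glands. Values are given as CPM, counts scaled to a common library total after TMM normalization, and a difference as log2 fold change (log2FC) of tumor over normal with its standard error (SE). A floor of 3 counts was worth 0.763 to 2.91 CPM, and the lowest count of any member in any library was 161, for mir-15b in a week 8 tumor. The 4 skeletal muscle miRNAs mir-1, mir-133a, mir-133b and mir-206 together exceeded 10000 CPM in 6 libraries, 4 normal (replicates 1 and 2 of week 6, replicate 3 of week 10, replicate 1 of week 12) and 2 tumor (replicate 1 of week 6, replicate 3 of week 10), up to 89345 CPM. They were between 39.9 and 8994 CPM in the other 18. Member results without those 6 libraries are given with each call they change. The other 18 hold only 1 normal gland of week 6 (replicate 3), so for week 6 alone they give an effect size only.

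The 5 rows made up 1.08% ± 0.206 (SD, n = 12) of all counts in normal glands and 0.642% ± 0.113 (SD, n = 12) in tumors. Of the family's own reads in normal glands, mir-195 took 45.1% ± 4.22 and mir-16 42.2% ± 4.37 (SD, n = 12). In tumors mir-195 took 35.3% ± 5.95 and mir-16 47.7% ± 6.43 (SD, n = 12). mir-15b, the least abundant member, went from 1.34% ± 0.219 of the family in normal glands to 3.28% ± 0.387 in tumors, and every tumor was above every normal gland. mir-15a took 5.04% ± 1.10 and 7.53% ± 1.34, and mir-497 took 6.31% ± 0.691 and 6.18% ± 1.25, in normal glands and tumors. By mean CPM the members ranked 39 (mir-16), 42 (mir-195), 84 (mir-497), 86 (mir-15a) and 120 (mir-15b) of the 237 tested miRNAs. The mature forms are 21 or 22 bases long, so their CPM needed no correction for length, although ligation during library preparation can favour some sequences over others. mir-16 and mir-195, and likewise mir-497 and mir-15a, did not separate beyond their spread. The log2 ratio of mir-16 to mir-195 within a library spanned -0.73 to 0.36 among normal glands and -0.40 to 1.06 among tumors, and that of mir-15a to mir-497 spanned -0.70 to 0.13 and -0.49 to 0.98. The other neighbours were apart in all 24 libraries, since the log2 ratio of mir-195 to mir-497 was never under 2.22 and that of mir-15a to mir-15b never under 0.92.

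**Figure D1:**
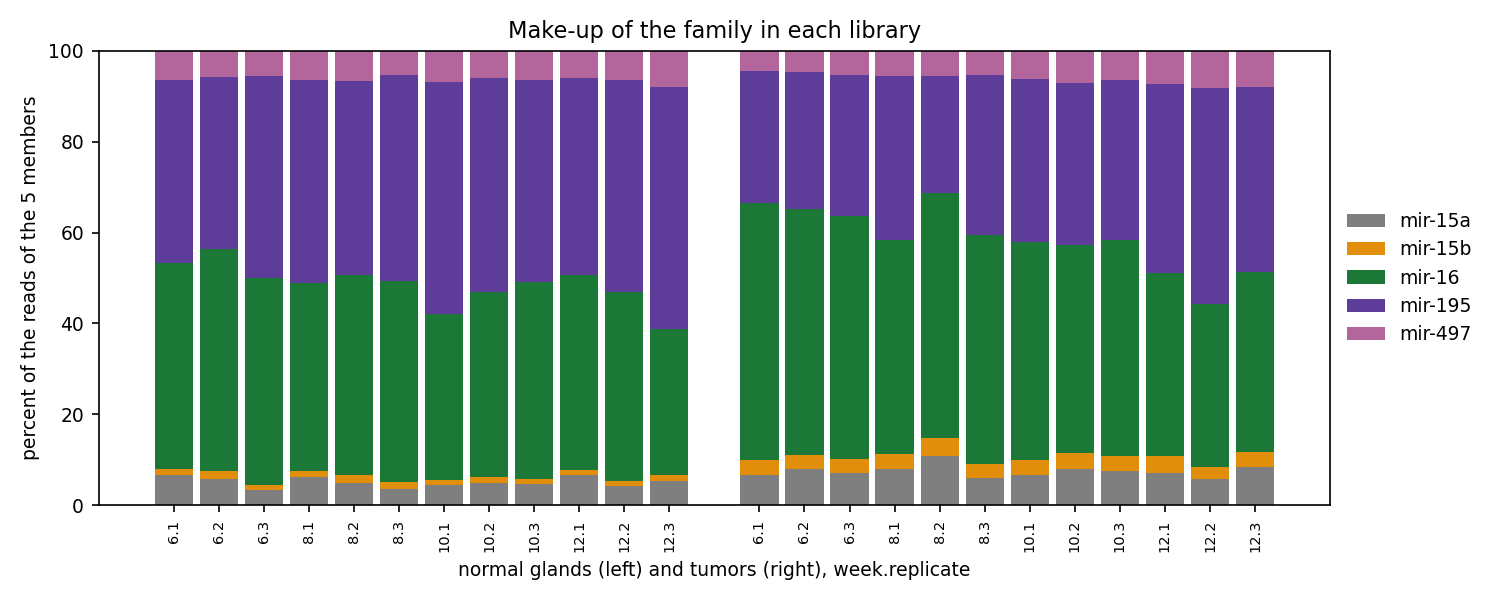
Stacked bars give, for each of 24 libraries, the percent of the reads of the 5 members that each member took, with normal glands on the left and tumors on the right, labelled by week and replicate. The mir-15b segment is wider in every tumor (2.51% to 3.98%) than in any normal gland (1.06% to 1.75%).

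With the 4 weeks averaged in a single fit of all libraries, 3 members were lower in tumors, 1 was higher and 1 did not pass the test. mir-195 fell furthest, to a level 2.09-fold lower than in normal glands (log2FC -1.06, SE 0.13, adjusted p = 5.21e-07). Its partner mir-497 was 1.68-fold lower (log2FC -0.75, SE 0.10, adjusted p = 1.54e-06), and mir-16 was 1.45-fold lower (log2FC -0.53, SE 0.09, adjusted p = 3.28e-05). mir-15b was 1.50-fold higher (log2FC 0.59, SE 0.10, adjusted p = 2.39e-05). mir-15a had a log2FC of -0.12 (SE 0.08, adjusted p = 0.177), so the family's members did not move together. Differences of this kind were common in the whole table: 38.8% of the 237 tested miRNAs were called higher and 46.8% lower, and the median log2FC was -0.15 over all of them and -0.53 over the 5 members. A share of 4 called members in 5 is therefore near the background. The calls on mir-195, mir-497, mir-16 and mir-15b held in the 18 libraries with little skeletal muscle signal (log2FC -1.24, -0.86, -0.63 and 0.51). Within sequencing lane 1 the differences in mean log2 CPM of mir-195, mir-497, mir-16 and mir-15b were -1.06, -0.82, -0.50 and 0.65, and within lane 2 they were -1.14, -0.71, -0.63 and 0.50. For mir-15a they were -0.26 and -0.0055.

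**Figure D2:**
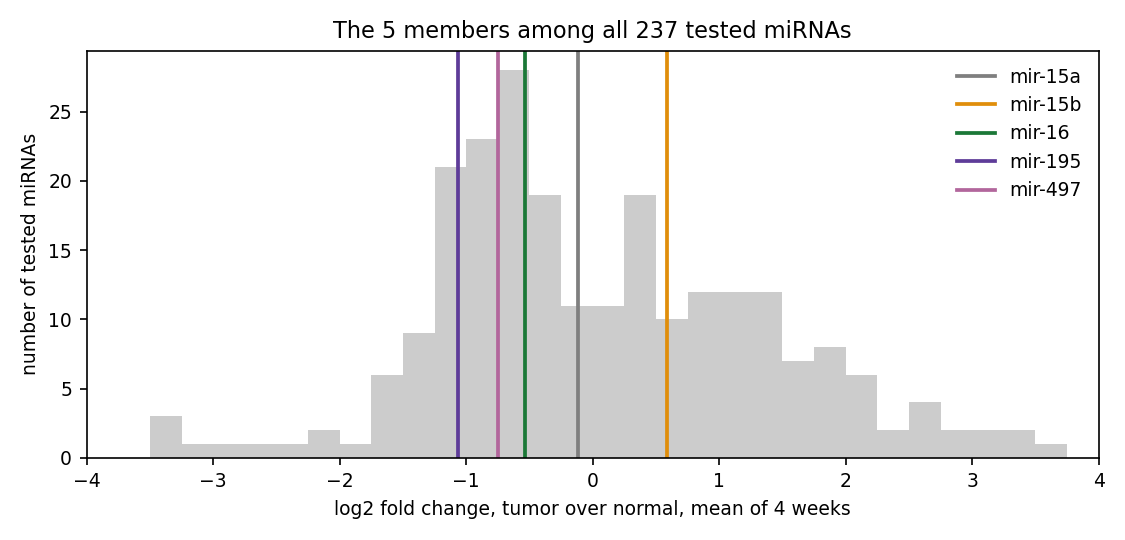
Histogram of the log2FC of tumor over normal, averaged over 4 weeks, for all 237 tested miRNAs (x axis, log2 units; y axis, number of miRNAs), with a vertical line for each member. The lines stand between -1.06 (mir-195) and 0.59 (mir-15b), while the whole table runs from -3.36 to 3.58.

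**Figure D3:**
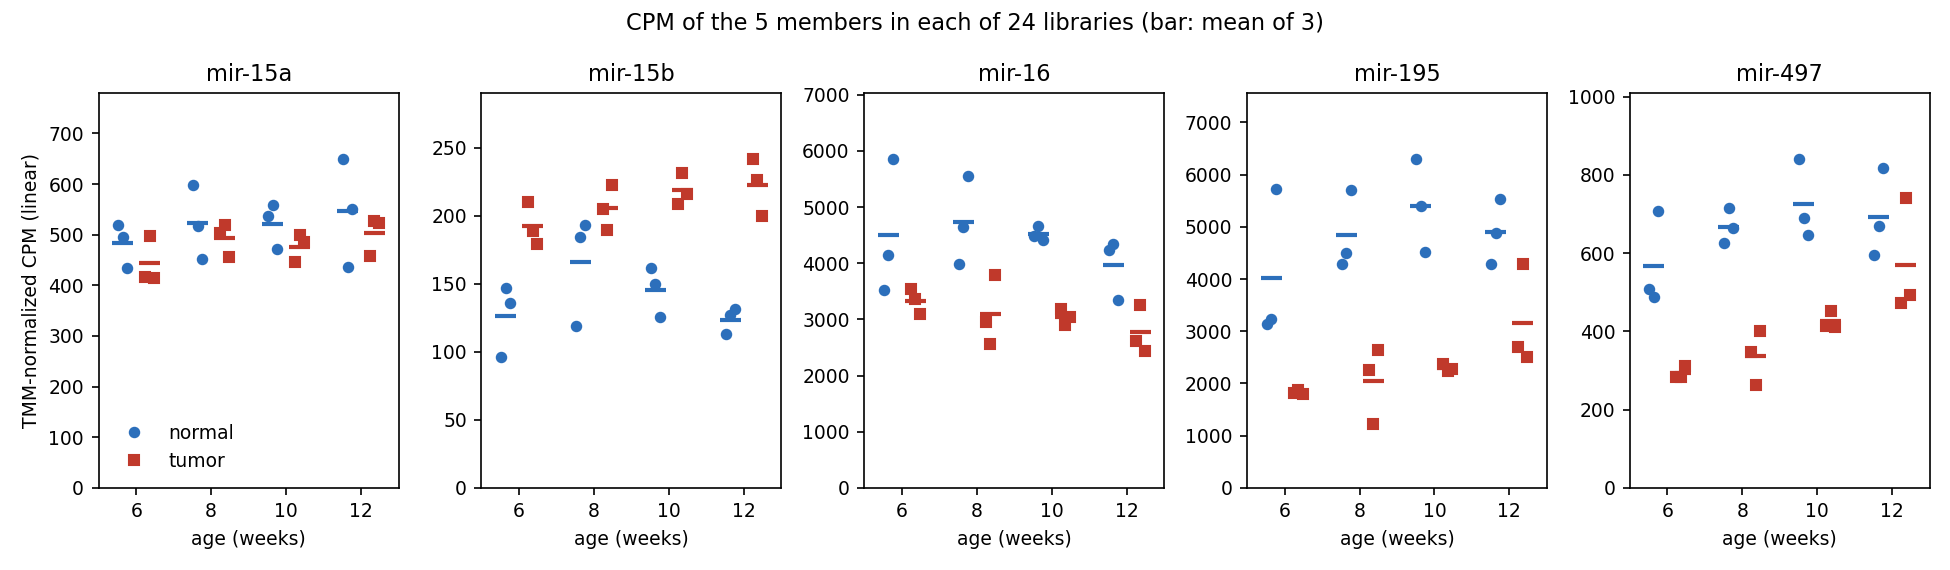
TMM-normalized CPM (linear axes from 0) of each member in each of 24 libraries against age in weeks, with circles for normal glands, squares for tumors and a bar at the mean of 3. The mir-195 squares lie below the circles of the same week at all 4 ages, while the mir-15a symbols overlap at each age.

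The chromosome 11 cluster, mir-195 and mir-497, gave the largest differences within the family at weeks 6, 8 and 10 and over the 4 weeks, but not at week 12. At week 6, mir-195 was at 3133, 3228 and 5724 CPM in the normal glands and 1817, 1881 and 1798 CPM in the tumors (replicates 1 to 3). At week 8 it was at 4290, 4505 and 5714 CPM in normal glands and 2264, 1230 and 2639 CPM in tumors. At week 10 the values were 6296, 5402 and 4523 CPM against 2367, 2245 and 2268 CPM. The groups did not overlap in any of these weeks, and the 3 tumors of week 6 and of week 10 were closely spaced. At week 12 normal glands had 4287, 4880 and 5527 CPM and tumors 2699, 4280 and 2508 CPM, so that replicate 2 reached almost the lowest normal gland. Over all ages 11 of 12 tumors lay below every normal gland. mir-195 was called lower at week 6 (2.20-fold, log2FC -1.13, SE 0.25, adjusted p = 0.00846), week 8 (2.41-fold, log2FC -1.27, SE 0.31, adjusted p = 0.0182) and week 10 (2.38-fold, log2FC -1.25, SE 0.16, adjusted p = 0.000886). At week 12 the log2FC was -0.65 (SE 0.26, adjusted p = 0.0689), and it was -0.81 (adjusted p = 0.0363) without tumor replicate 2 and -0.72 (adjusted p = 0.0464) in the 18 libraries low in muscle miRNAs. The week 8 call was lost without normal replicate 3 (adjusted p = 0.0505). At week 6 the 18 libraries low in muscle miRNAs gave a log2FC of -1.64. That value rests on 1 normal gland, replicate 3, the highest of that week (5724 CPM).

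mir-497 followed its partner at a lower level. Normal glands had 508, 487 and 707 CPM at week 6, and tumors 284, 284 and 311 CPM. At week 8 normal glands had 625, 714 and 663 CPM and tumors 347, 263 and 402 CPM. At week 10 they had 840, 690 and 646 CPM and tumors 414, 453 and 411 CPM. The groups did not overlap up to week 10. At week 12 they did, with 594, 670 and 817 CPM in normal glands against 472, 741 and 492 CPM in tumors, and replicate 2, the tumor with the most mir-195, was also the tumor with the most mir-497. mir-497 was called lower at week 6 (1.93-fold, log2FC -0.95, SE 0.21, adjusted p = 0.00901), week 8 (2.01-fold, log2FC -1.01, SE 0.25, adjusted p = 0.0185) and week 10 (1.72-fold, log2FC -0.78, SE 0.16, adjusted p = 0.00559), while week 12 gave a log2FC of -0.31 (SE 0.26, adjusted p = 0.358). Leaving out tumor replicate 2 at week 6 (adjusted p = 0.0545) removed the call of that week. So did leaving out tumor replicate 1 (adjusted p = 0.0694) or normal replicate 2 (adjusted p = 0.0509) at week 8. At week 6 the 18 libraries low in muscle miRNAs gave a log2FC of -1.25. It rests on 1 normal gland, replicate 3, the highest of that week (707 CPM).

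mir-16, the member with 2 genomic copies, was lower in tumors by less. At week 6 the normal glands had 3529, 4149 and 5853 CPM and the tumors 3541, 3363 and 3099 CPM, so replicate 1 of each nearly coincided. At week 8 normal glands had 3992, 4644 and 5552 CPM and tumors 2949, 2557 and 3797 CPM. At week 10 they had 4478, 4662 and 4414 CPM against 3190, 2895 and 3043 CPM, with little spread in either group. At week 12 normal glands had 4242, 4343 and 3337 CPM and tumors 2619, 3251 and 2443 CPM, without overlap. Week 10 passed the test (1.50-fold lower, log2FC -0.58, SE 0.12, adjusted p = 0.00559). Weeks 6, 8 and 12 did not, with log2FC of -0.44 (SE 0.20, adjusted p = 0.0958), -0.63 (SE 0.23, adjusted p = 0.0599) and -0.53 (SE 0.19, adjusted p = 0.0546). With same-numbered libraries paired, week 8 passed (log2FC -0.65, adjusted p = 0.0401), as it did under 6 other alternatives (lowest adjusted p = 0.0103, in a single fit of the 24 libraries). Leaving out normal replicate 1 at week 6 (log2FC -0.59, adjusted p = 0.0307) or normal replicate 3 at week 12 (log2FC -0.65, adjusted p = 0.0450) brought those weeks past the threshold. Week 8 also passed in the 18 libraries low in muscle miRNAs (log2FC -0.61, adjusted p = 0.0139). At week 6 those 18 libraries gave a log2FC of -0.86. That value rests on 1 normal gland, replicate 3, which had the most mir-16 of all libraries (5853 CPM).

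mir-15b, transcribed with a copy of miR-16 from the Smc4 locus, was the single member at higher CPM in tumors. Normal glands had 96.4, 147 and 136 CPM at week 6, and tumors 210, 189 and 179 CPM. At week 8 the ranges met, with 119, 185 and 193 CPM in normal glands and 205, 189 and 223 CPM in tumors. At week 10 normal glands had 162, 150 and 126 CPM and tumors 209, 231 and 216 CPM, and at week 12 113, 127 and 131 CPM against 242, 227 and 200 CPM. The groups were apart at weeks 6, 10 and 12, and 9 of 12 tumors exceeded every normal gland of any age. It was called higher at week 12 (1.79-fold, log2FC 0.84, SE 0.22, adjusted p = 0.0176) and narrowly at week 10 (1.49-fold, log2FC 0.57, SE 0.20, adjusted p = 0.0391). Weeks 6 and 8 gave log2FC of 0.61 (SE 0.24, adjusted p = 0.0615) and 0.30 (SE 0.27, adjusted p = 0.392). The week 10 call was lost when any of its 6 libraries was left out (log2FC 0.39 to 0.65, adjusted p 0.0553 to 0.148) and in the 18 libraries low in muscle miRNAs (log2FC 0.50, adjusted p = 0.126), and the week 12 call without tumor replicate 1 (adjusted p = 0.0787) or normal replicate 1 (adjusted p = 0.0530).

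mir-15a, the partner of miR-16 at Dleu2, was at 435 to 649 CPM in normal glands and 414 to 527 CPM in tumors. At week 6 normal glands had 519, 495 and 435 CPM and tumors 417, 498 and 414 CPM. At week 12 they had 649, 437 and 552 CPM and 459, 527 and 522 CPM. The groups overlapped at all 4 ages. Its weekly log2FC lay between -0.15 and -0.12, with adjusted p of 0.572, 0.674, 0.416 and 0.641 at weeks 6, 8, 10 and 12. These values do not show equality, and the sign at weeks 6, 8 and 12 turned under some alternatives.

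Per week, the members called were 2 lower at week 6, 2 lower at week 8, 3 lower and 1 higher at week 10, and 1 higher at week 12. Over all tested miRNAs, 29.5% were lower and 29.1% higher at week 6, 13.5% lower and 21.9% higher at week 8, 27.4% lower and 32.9% higher at week 10, and 21.5% lower and 29.1% higher at week 12. Members whose tumor and normal values did not overlap numbered 3, 3, 4 and 3 of 5 at the 4 ages, beside 68.8%, 51.9%, 67.9% and 62% of all tested miRNAs, so a lack of overlap was not particular to the family. The median log2FC of the members was -0.44, -0.63, -0.58 and -0.31 at weeks 6, 8, 10 and 12, and that of all tested miRNAs -0.12, -0.09, -0.15 and -0.19.

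**Figure D4:**
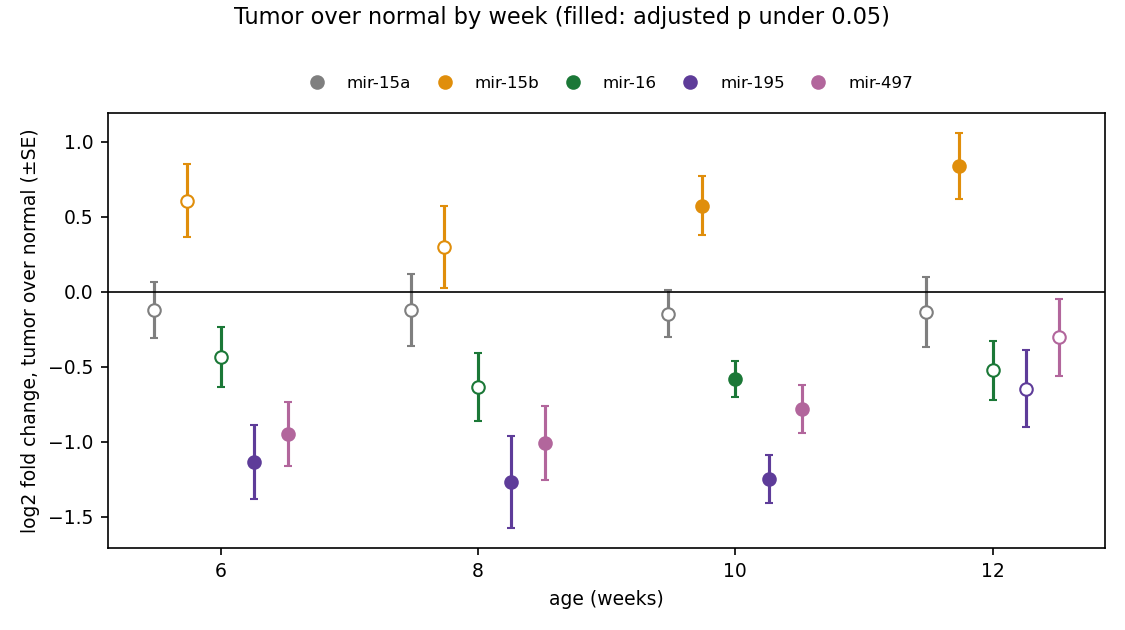
The log2FC of tumor over normal (y axis, log2 units, error bars SE) of the 5 members at weeks 6, 8, 10 and 12 (x axis), from separate fits of 6 libraries, with filled points for an adjusted p under 0.05. mir-15b stands above 0 at every week (0.30 to 0.84), mir-16, mir-195 and mir-497 below, and mir-195 and mir-497 lie closest to 0 at week 12.

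Partners of a cluster were next compared by the log2 ratio of their CPM within a library, which does not depend on how libraries are scaled. Each ratio was tested for a tumor-normal difference by a two-sided exact permutation test over libraries, with labels exchanged within weeks and adjustment over the 10 pairs of members. The largest difference between partners was that of mir-15b and mir-16. Their log2 ratio was -5.42 to -4.65 among normal glands and -4.15 to -3.43 among tumors, without overlap over all 24 libraries. The mean difference was 1.13 (SE 0.08, exact permutation p = 1.25e-05, adjusted p = 4.17e-05), and it was 1.03, 0.95, 1.16 and 1.36 at weeks 6, 8, 10 and 12. That p is the smallest the 160000 arrangements can give. mir-15a and mir-16 were closer, with log2 ratios of -3.75 to -2.59 in normal glands and -3.08 to -2.22 in tumors. Their mean difference was 0.42 (SE 0.13, exact permutation p = 0.00275, adjusted p = 0.00306), the ranges overlapped, and the call was lost without the libraries of replicate 2 (difference 0.33, adjusted p = 0.0633). mir-195 and mir-497 shifted least, and in the other direction: the ratio was 2.62 to 3.11 in normal glands and 2.22 to 2.72 in tumors, a difference of -0.32 (SE 0.07, exact permutation p = 0.00025, adjusted p = 0.000313). It was -0.15, -0.30, -0.46 and -0.36 at weeks 6, 8, 10 and 12, and the groups were apart at weeks 10 and 12.

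**Figure D5:**
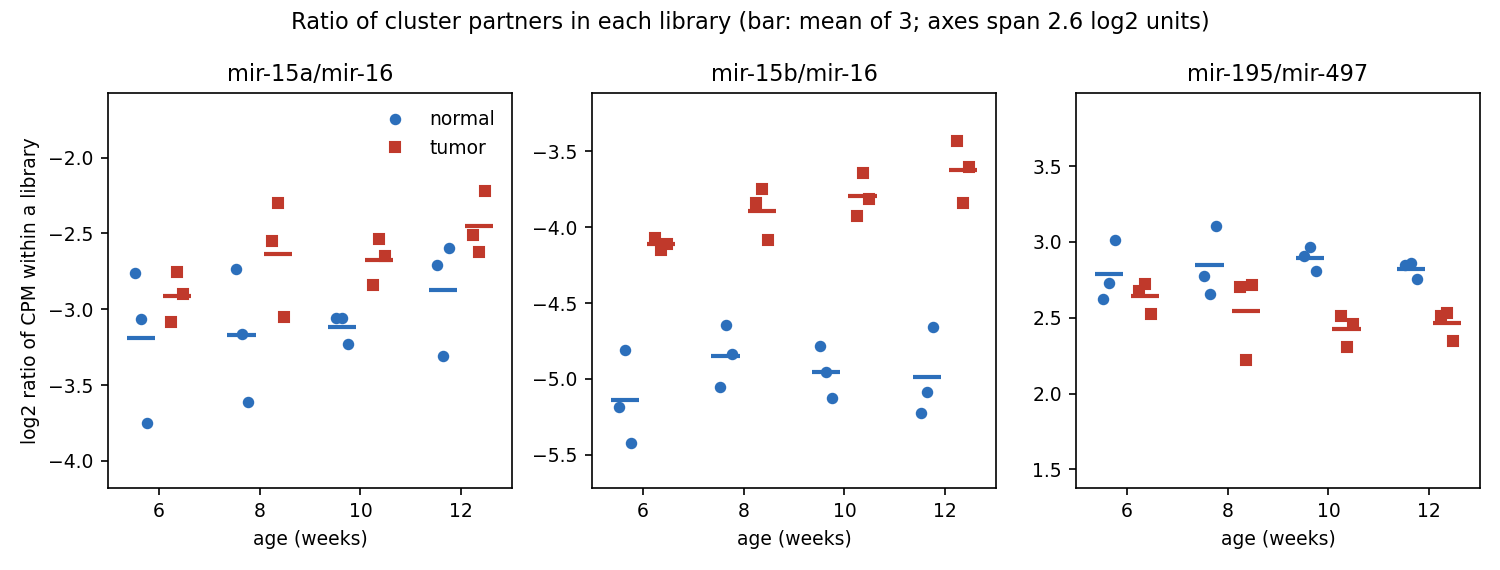
Log2 ratio of the CPM of cluster partners within each library (y axes, each spanning the same number of log2 units) against age in weeks, with circles for normal glands, squares for tumors and bars at the mean of 3. The mir-15b/mir-16 squares stand 0.95 to 1.36 above the circles on average at each age, and the mir-195/mir-497 points vary least.

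Across clusters the ratios separated mir-15b from every other member. Its ratio to mir-195 was higher in tumors by 1.67 (SE 0.12) and to mir-497 by 1.35 (SE 0.10), each with exact permutation p = 1.25e-05 and adjusted p = 4.17e-05, and all 12 tumors lay above every normal gland in both. Even against mir-15a, the member nearest in sequence, mir-15b rose: the log2 ratio of mir-15a to mir-15b fell by 0.71 (SE 0.13, exact permutation p = 5e-05, adjusted p = 0.0001), from a mean of 1.89 in normal glands to 1.19 in tumors. mir-16 and mir-195, which differ by 2 of the compared bases, changed unequally as well, with a ratio higher by 0.54 in tumors (SE 0.09, exact permutation p = 0.0001, adjusted p = 0.000167). The differences of mir-15a against mir-195 and mir-497 were 0.96 (adjusted p = 6.25e-05, exact permutation) and 0.64 (adjusted p = 0.000304, exact permutation). The difference of mir-16 against mir-497, 0.22, barely passed (exact permutation p = 0.0492, adjusted p = 0.0492). It was lost without the libraries of replicate 1, 2 or 3 (0.15, 0.28 and 0.23, adjusted p 0.0600 to 0.194). It was also lost with same-numbered libraries paired at every age (adjusted p = 0.0830, exact permutation). That pairing included week 12, where the numbers were not taken to pair libraries. Its sign turned with age, at 0.53, 0.39, 0.19 and -0.22 at weeks 6, 8, 10 and 12. Between weeks 6 and 12 the difference went from 0.67 to 0.14 for mir-16/mir-195. It went from 0.95 to 0.56 for mir-15a/mir-195 and from 0.81 to 0.20 for mir-15a/mir-497. For mir-15b it was still 1.51 against mir-195 and 1.15 against mir-497 at week 12. The change of these ratios with age was not tested. So 10 of 10 pairs passed, but these are ratios of the same 5 members and are not independent of each other. The share of all pairs that would pass this test was not computed, so the count is not shown to be particular to the family. Pairs of other miRNAs also differed: over all 27966 pairs of tested miRNAs the median absolute difference was 1.13 log2 units, as large as that of mir-15b and mir-16. The differences of mir-15a/mir-16 and mir-195/mir-497 were smaller than those of 78.9% and 83.8% of all pairs.

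The pair mir-195/mir-497 kept the most constant ratio. Its SD within groups was 0.16 log2 units, against 0.21 for mir-15b/mir-16, 0.33 for mir-15a/mir-16 and a median of 0.57 over all pairs of tested miRNAs, and 0.257% of all pairs had an SD as small. Their log2 CPM correlated with r = 0.96 over the 24 libraries, 0.91 over the 12 normal glands and 0.92 over the 12 tumors. By correlation, partners at the other loci did not track each other in this way. For mir-15a and mir-16 r was -0.01 over 24 libraries, -0.51 over normal glands and -0.47 over tumors, and for mir-15b and mir-16 it was -0.49, 0.59 and 0.06. These coefficients are descriptions over libraries that share a normalization and fall into the study's groups. A small SD of the ratio was not particular to the chromosome 11 partners. Of all pairs, 1.123% had an SD as small as that of mir-15b/mir-16, and 9.64% as small as that of mir-15a/mir-16. Across clusters the SD was 0.220 for mir-16/mir-497 and 0.225 for mir-16/mir-195, both below that of mir-15a/mir-16. The other pairs across clusters ranged from 0.245 (mir-15b/mir-497) to 0.412 (mir-15a/mir-195).

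Changes with age were tested between weeks 12 and 6. At week 6 replicates 1 and 2 were sequenced in lane 1 and replicate 3 in lane 2. At week 12 replicate 1 was in lane 1 and replicates 2 and 3 in lane 2, so age and lane were partly confounded. In tumors mir-497 rose 1.94-fold (log2FC 0.96, SE 0.20, adjusted p = 0.0233), from a mean of 293 CPM ± 15.9 to 568 CPM ± 150 (SD, n = 3). The medians of the 4 ages were 284, 347, 414 and 492 CPM. mir-195 had a log2FC of 0.79 (SE 0.26, adjusted p = 0.0686), with means of 1832 CPM ± 43.5 and 3162 CPM ± 973 (SD, n = 3). Both week 12 spreads came mainly from replicate 2. The mir-497 call was lost without tumor replicate 2 of week 12 (log2FC 0.72, adjusted p = 0.0641) and without tumor replicates 1 (log2FC 0.93, adjusted p = 0.0827) or 3 (log2FC 1.00, adjusted p = 0.0761) of week 6. It was also lost when replicate 1, 2 or 3 was left out of every group (log2FC 1.09, 0.79 and 1.09, adjusted p up to 0.173), so that 6 of 9 such fits lost it. The Wald test of DESeq2 called both, mir-497 with a log2FC of 1.09 (adjusted p = 0.000183) and mir-195 with 0.92 (adjusted p = 0.0145), and mir-195 also passed edgeR's test without tumor replicate 1 of week 12 (log2FC 0.97, adjusted p = 0.0412). mir-15a, mir-15b and mir-16 had log2FC of 0.18, 0.21 and -0.27 and were not called. The background was 7.59% of tested miRNAs called.

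In normal glands edgeR called 0 of the 5 members between weeks 12 and 6, where 21.1% of tested miRNAs were called. None had an unadjusted p under 0.05, and DESeq2 called 0 as well. The log2FC were 0.18 (mir-15a), -0.03 (mir-15b), -0.18 (mir-16), 0.28 (mir-195) and 0.29 (mir-497). The tumor-normal difference itself did not pass for any member when week 12 was set against week 6 (0.422% of tested miRNAs called). mir-497 came closest, with a change of 0.67 (SE 0.28, unadjusted p = 0.0298, adjusted p = 0.321), the 1 member with an unadjusted p under 0.05, and DESeq2 called 0 members. F tests over all 4 ages called 0 members: for the tumor-normal difference 0% of tested miRNAs passed (9 had an unadjusted p under 0.05, no member among them), for normal glands 13.9% passed (no member had an unadjusted p under 0.05), and for tumors 0% passed (39 had an unadjusted p under 0.05, mir-195 and mir-497 among them). The smaller tumor-normal difference of mir-195 and mir-497 at week 12 was thus not shown to differ from that of earlier weeks.

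Markers of other cell types differed between tumors and normal glands in the same libraries. In bulk tissue, fewer cells of a type and less RNA per cell cannot be told apart. All 5 epithelial miRNAs (mir-200a, mir-200b, mir-200c, mir-141, mir-429) were called higher over the 4 weeks, and their summed level was 15538 to 27214 CPM in tumors against 2719 to 5010 CPM in normal glands. Both smooth muscle and myoepithelial miRNAs (mir-143, mir-145) were called lower, with sums of 64715 to 129098 CPM in tumors and 144030 to 256187 CPM in normal glands. All 3 fibroblast miRNAs (mir-199a, mir-199b, mir-214) were called lower, at 4179 to 8040 CPM in tumors against 12658 to 19882 CPM, as was the endothelial mir-126, at 6568 to 18254 CPM against 20498 to 37464 CPM. These 4 lists separated tumors from normal glands in every library, in the direction of mir-15b for the epithelial list and of mir-195, mir-497 and mir-16 for the other 3. The tumor with the most mir-195 and mir-497 (week 12, replicate 2) also had the largest smooth muscle and myoepithelial sum of all tumors. Its fibroblast sum (7845 CPM) was the largest of the week 12 tumors and near the largest of all tumors (8040 CPM). Its endothelial level (11619 CPM) was below the tumor median (11780 CPM). The tumor with the least mir-195 and mir-497 (week 8, replicate 2) had the largest epithelial sum, 27214 CPM, and the lowest endothelial level. Its smooth muscle and myoepithelial sum (66051 CPM) and its fibroblast sum (4698 CPM) were the lowest of the week 8 tumors. Both were near the lowest of all tumors (64715 and 4179 CPM). The tumor with the highest endothelial level (week 6, replicate 2, 18254 CPM) had 1881 CPM of mir-195, below the tumor median of 2266 CPM. The part of cell composition in the members' differences was not tested.

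The remaining lists moved less evenly. All 3 tested skeletal muscle miRNAs of 4 listed were called lower over the 4 weeks, with sums from 39.9 to 18079 CPM in tumors and 89.0 to 89345 CPM in normal glands. All 3 erythroid miRNAs (mir-144, mir-451, mir-486) were called lower, at 2060 to 13679 CPM in tumors and 7798 to 34558 CPM in normal glands. Of the 3 tested leukocyte miRNAs 1 was called lower, with sums of 1198 to 1868 CPM against 1681 to 3241 CPM, and mir-223, a defining myeloid miRNA, was listed at 0 in every library, and whether its reads were counted is not known. Of 3 adipocyte-linked miRNAs 2 were called lower, at 3046 to 15080 CPM against 4662 to 25146 CPM. The ranges of these 4 sums overlapped between tumors and normal glands.

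Relatives of the family were few in this table. The wider group around miR-15 and miR-107 shares the letters AGCAGC near the 5′ end. Of 7 other names looked for, 4 had a row, while mir-424, mir-646 and mir-195b had none. Whether mir-424 and mir-646 exist in the mouse was not checked. mir-322, which has the members' seed, and mir-503 were listed at 0 in all 24 libraries, and whether reads of these miRNAs were counted at all is not known. mir-103 was at 4036 to 6740 CPM in normal glands and 2318 to 3518 CPM in tumors, without overlap, and was called lower over the 4 weeks (log2FC -0.95, SE 0.09, adjusted p = 5.85e-09). mir-107 was at 231 to 709 CPM in normal glands and 181 to 466 CPM in tumors and was also called lower (log2FC -0.55, SE 0.17, adjusted p = 0.00645). Their mature sequences are nearly identical, so the split of reads between these 2 rows is uncertain. Their direction was that of mir-16, mir-195 and mir-497, not that of mir-15b.

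By the likeness of log2 CPM over the 24 libraries, the 3 nearest miRNAs of mir-195 were mir-497 (r = 0.96), mir-139 (0.90) and mir-130a (0.89), and those of mir-497 were mir-195, mir-139 (0.79) and mir-130a (0.79). mir-16 was most like mir-350 (0.92), mir-145 (0.90) and mir-193 (0.88). mir-15b was most like mir-25 (0.89), mir-200b (0.88) and mir-301a (0.88), and mir-15a like mir-27a (0.81), mir-29a (0.77) and mir-26b (0.76). Over the 12 tumors alone several of these weakened, to 0.17 for mir-15b with mir-25, 0.27 for mir-15b with mir-200b and 0.17 for mir-497 with mir-130a, while mir-16 with mir-145 stayed at 0.83 and mir-15a with mir-27a at 0.79. These coefficients include the tumor-normal difference common to the libraries and are given without a test.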

How the data were processed

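Small RNA libraries of 24 mouse mammary samples were used, 3 per group. The authors deposited counts of reads per miRNA, not normalized. Per the study's methods, reads of 17 to 27 bases were aligned with Bowtie (version not given in the sources used here) and counted where they overlapped more than 50% of a miRBase miRNA. The methods name mm10, while the labels and the submitters' processing notes name mm9. Arms and genomic copies share a row, and no rule for reads with several matches or mismatches was given, so reads of near-identical members such as mir-16 and mir-195 may be split imperfectly. Each sample was a separate mouse.

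Of 510 listed miRNAs, filterByExpr of edgeR 4.0.16 (R 4.3.3) kept 237. TMM normalization and the quasi-likelihood test with Benjamini-Hochberg adjustment over the 237 miRNAs (threshold 0.05) were run on the 6 libraries of each week, and on all 24 libraries for averages over weeks and changes with age. CPM and log2 CPM (prior count 2) used TMM factors over the 24 libraries. SEs of log2FC were taken from the F statistics (absolute log2FC over root F). The SE of a mean log ratio pools the spread within the 8 groups. Mature sequences were searched in mm9 with Python 3. Total counts limit precision less than the 3 mice per group, and the floor of 3 counts covers counting error only.

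Deviations of same-numbered tumor and normal libraries from their group means correlated in every pair (r over 0.1) at weeks 6, 8 and 10 (r 0.20 to 0.82), so the numbers were taken to pair libraries there. At week 12 r was 0.03, 0.42 and 0.07, and they were not. Some differently numbered libraries also correlated. At week 10, tumor 2 with normal 1 (r = 0.59) and tumor 1 with normal 2 (r = 0.58) exceeded the same-numbered pair 1 (r = 0.49). At week 6, tumor 1 with normal 2 reached 0.31. Over the 4 weeks the mean r was 0.41 for same-numbered and -0.18 for differently numbered libraries. Deviations within a group cancel out by construction, so the second mean largely follows from the first and adds no support for pairing. The main fits did not use the pairing. The labels and the study state no pairing.

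Members, lists and tests were chosen with earlier results of these data known. The genes named were the 5 members, the wider group around miR-15 and miR-107, the 3 miRNAs most like each member and the marker lists. Alternatives were DESeq2 size factors, library totals, totals without the 5 most counted miRNAs, the Wald test of DESeq2 1.42.0, other filters, the sequencing lane, a replicate block, a single fit and leaving out replicates. The fit without 6 libraries rich in skeletal muscle miRNAs, and tumor libraries left out singly between weeks 12 and 6, were added after seeing the data.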

Additional observations from a re-analysis of the deposited data

How the results depend on the processing

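Over the 4 weeks the calls on mir-15b, mir-16, mir-195 and mir-497 held under every alternative run, while mir-15a passed only in the Wald test of DESeq2 (log2FC -0.20, adjusted p = 0.0481). Weekly calls rested on 6 libraries and moved more: with single libraries left out, week 6 had 1 to 3 called members, week 8 had 1 to 2 and week 12 had 0 to 2, and tumor weeks 12 against 6 had 0 to 2. A single fit of the 24 libraries called 3 members at week 12 (mir-16 and mir-195 added, adjusted p = 0.0214 and 0.0465), and that of the 18 libraries low in muscle miRNAs called 2. Between tumor weeks 12 and 6, DESeq2 size factors called 2 (mir-195 added, log2FC 0.92, adjusted p = 0.0318). At week 6 mir-15b passed with DESeq2 size factors (0.65), the Wald test (0.65), a minimum of 10 counts (0.69) and the single fit (0.61), and mir-16 passed with library totals (-0.58). At week 8 mir-16 passed with DESeq2 size factors, the Wald test, a minimum of 10 counts, the lane as a covariate and both single fits (adjusted p 0.0103 to 0.0497). At week 10 mir-15b was lost with DESeq2 size factors, without a filter, with the lane as a covariate and with totals without the 5 most counted miRNAs (adjusted p 0.0514 to 0.0763). The cause of these changes was not tested.

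With the replicate block, mir-16 passed at week 8 (log2FC -0.65, adjusted p = 0.0401), where 131 of all miRNAs were called in place of 84. The ratio of mir-16 to mir-497 did not pass (adjusted p = 0.0830, exact permutation). The block changed no other call on a member.

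Values that turned sign were small and not called. For mir-15a, tumor over normal became 0.038 with library totals at week 12, 0.069 at week 6 and 0.023 at week 12 in the 18 libraries, and with libraries left out it reached 0.0092 at week 6, lay between -0.18 and 0.048 at week 8, and between -0.30 and 0.0054 at week 12. Between normal weeks 12 and 6, mir-15b became 0.029 with DESeq2 size factors, and with library totals mir-15a became -0.14, mir-195 -0.011 and mir-497 -0.0079. With replicates left out, mir-15b ranged from -0.023 to 0.31 and mir-16 from -0.25 to 0.16. For the change of the tumor-normal difference, mir-16 became 0.18 with library totals, and with libraries left out mir-15a ranged from -0.24 to 0.20, mir-15b from -0.033 to 0.31 and mir-16 from -0.40 to 0.11. Library totals alone moved the median of all miRNAs by -0.14, -0.13 and 0.18 at weeks 6, 8 and 12, and totals without the 5 most counted miRNAs by 0.12 at week 12.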
